A study of Trichoderma reesei with 15 samples.

Results

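The transcripts described here come from the longest genes of Trichoderma reesei, a mould whose secreted cellulases are made on an industrial scale. They were chosen by size alone, as the genes with a listed length of at least 6000 bases and at least 10 counts in 2 or more libraries. This rule was met by 71 of the 10879 rows of deposited counts, or 0.653%. A further 5 genes reached the length and missed the count minimum. TrC1561W, with 6351 bases, held 34 counts over all libraries, and TrF0007C, TrF0401C, TrG0614W and TrG0875C held 0.

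RNA was sequenced from mycelium after 96 h at 28 °C in constant darkness on a cellulose-containing minimal medium. Every strain carried a deletion of mus53, a gene of DNA end joining whose removal favours targeted gene replacement, and the strain QM6aΔmus53, with no phosphatase deletion, served as the parent. The 15 libraries form 5 groups. The tag DD1 is shared by the parent (2 libraries), the deletion of pp2A in that parent, QM6aΔmus53Δpp2A (4 libraries), and the deletion of pph5, which the design text writes pp5h (3 libraries). The tag DD3 is shared by the parent (2 libraries) and the deletion of pph5-2, written pp5h-2 in the design text (4 libraries). The labels leave the meaning of DD1 and DD3 unsaid. Titles decided the groups where labels disagreed, because replicate 1 of Δpp2A carries the type WT and the Δpph5-2 libraries carry pph5 as source name. Nothing in the labels says that replicates were separate cultures or that a deletion was made in more than 1 clone, so each p-value reflects the spread of these libraries alone, and that spread may be technical.

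Coding sequences of this size in filamentous fungi usually encode large multidomain proteins. Known classes are nonribosomal peptide synthetases, which in Trichoderma include the peptaibol synthetases, polyketide synthases, the dynein heavy chain that moves cargo along microtubules, the ribosome assembly factor midasin, fatty acid synthase, acetyl-CoA carboxylase and TOR-type kinases. PP2A and PP5 are serine/threonine protein phosphatases. PP2A acts as a complex of catalytic, scaffold and regulatory subunits, and PP5 carries its regulatory domain in the same chain as its catalytic one. The table lists systematic identifiers with no gene names, and 0 of them matched the reference gene table of 9116 genes. No member could therefore be assigned to any of these protein classes, members are named by identifier, and the labelled mycelium could not be checked against marker genes.

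Library totals ran from 6026511 to 13572121 counts. In each deletion group 1 transcript stood at or near 0 that was present in all other libraries. TrG1101W held 4 counts over the 4 Δpp2A libraries, replicate 1 included, against 197 to 435 in each other library. TrE1020W held 0 in Δpph5 against 973 to 1666, and TrE0027W held 0 in Δpph5-2 against 84 to 397. None of these is a long gene, and whether they are the deleted genes cannot be read from the table.

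The 71 long genes had a median length of 7233 bases, against 1113 over all rows, and 70 of their lengths were multiples of 3, so lengths are taken as coding lengths. The exception was TrE0613W with 6142 bases. Between 6000 and 7000 bases lay 31 members, between 7000 and 10000 another 31, and 9 were longer. The longest were TrB1256C with 29481 bases, enough for 9827 codons with the stop, TrG0248C with 25413, TrG0670C with 15522, TrB0063W with 14631 and TrC0677C with 13074. The identifiers spread over all 7 letter series, from 8 members in G to 12 in A and in D, and 31 ended in W and 40 in C. Just inside the length limit were TrF0805C (6006 bases), TrA1010C (6036) and TrE1225C (6078), at 51.7, 49.7 and 21.9 CPM per kilobase. Just outside were TrC0748C (5982), TrE0290W (5958) and TrB0133W (5868), at 23.8, 51.0 and 61.7 CPM per kilobase. CPM stands here for counts scaled to a common library size with TMM factors, a correction for the composition of each library.

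Most long genes were well covered by reads. All 71 passed the filter on low counts, 66 held at least 10 counts in every library and 38 held at least 1000 in every library. Per kilobase of length, the members' mean level over the 15 libraries had a median of 49.7 CPM per kilobase, against 29.5 for the 8912 genes kept, and 45 of the 71 were above that value. By length, the median was 27.7 under 1000 bases, 26.4 from 1000 to 2000, 36.9 from 2000 to 4000 and 42.4 from 4000 to 6000. A level above that of all genes was thus not particular to the long genes. The members' levels per kilobase spanned 0.0552 in TrF0197C to 304 in TrC0287C. After TrC0287C the highest were TrC0441C at 276.5, TrF1161W at 223, TrG0547C at 213 and TrE0660W at 174 CPM per kilobase. Of the longest genes TrG0670C stood at 119 CPM per kilobase, TrC0677C at 85.1, TrB1256C at 61.4, TrG0248C at 43.3 and TrB0063W at 15.6. In the plot of length against level the longest genes were neither the highest nor the lowest per kilobase.

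**Figure D1:**
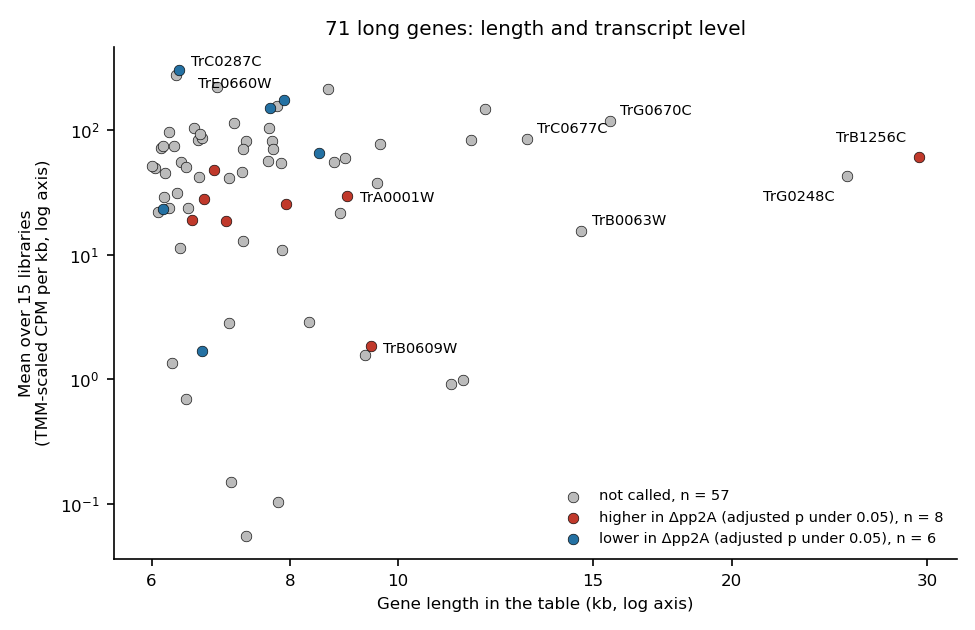
Gene length in kilobases (log axis) against the mean level over 15 libraries in TMM-scaled CPM per kilobase (log axis), 1 point per long gene, coloured by the call in Δpp2A against its parent. The longest gene, TrB1256C, lies at 61.4 CPM per kilobase, and the highest, TrC0287C, at 304.

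The levels of most long genes varied little between libraries. The SD of log2(CPM + 0.5) over the 15 libraries had a median of 0.25 for the members and 0.35 for all genes kept. By length, the median was 0.40 under 1000 bases, 0.36 from 1000 to 2000, 0.26 from 2000 to 4000 and 0.21 from 4000 to 6000. A small spread was thus not particular to the long genes. The smallest spread was that of TrG0205C with an SD of 0.07, followed by TrG0547C with 0.08 and TrB1157W with 0.09. TrG0205C had 532 and 510.2 CPM in the DD1 parent, 513 to 529 in Δpp2A, 471 to 593 in Δpph5, 509 and 489 in the DD3 parent, and 495 to 517 in Δpph5-2. The groups lay close together, with the 2 DD3 parent libraries just below those of the DD1 parent and Δpp2A. The largest spreads were those of TrE0660W with an SD of 3.33, TrE0659C with 2.80 and TrD0136W with 2.12.

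Deletion of pp2A changed 14 of the 71 long genes (8 higher and 6 lower) by edgeR's quasi-likelihood test at an adjusted p under 0.05. That is 19.7% of the members, and 18.7% of all 8912 genes tested were called in this comparison. Higher calls made up 11.3% of the members against a background of 7.94%, and lower calls 8.45% against 10.7%. Higher calls also outnumbered lower ones in the 227 genes of 4000 to 6000 bases, with 32 higher and 17 lower. The median log2 fold change was 0.08 for the members and -0.03 for all genes, and 45 members had a positive and 26 a negative estimate. An unadjusted p under 0.05 was reached by 23 members, 32.4% against 36% of all genes. In 27 members every Δpp2A library lay above both parent libraries, which is 38% against 23.8% of all genes, and in 11 every one lay below, 15.5% against 20.9%. The share of members called was therefore close to the background, while the positive estimates outnumbered the negative. Fewer cells and less RNA per cell cannot be told apart in these bulk samples. When counts were scaled by library size only, 20 members were called (16 higher and 4 lower) and 21.4% of all genes, and the median of all genes moved to 0.28, so that the higher part of the calls was 80.0% in place of 57.1%.

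**Figure D2:**
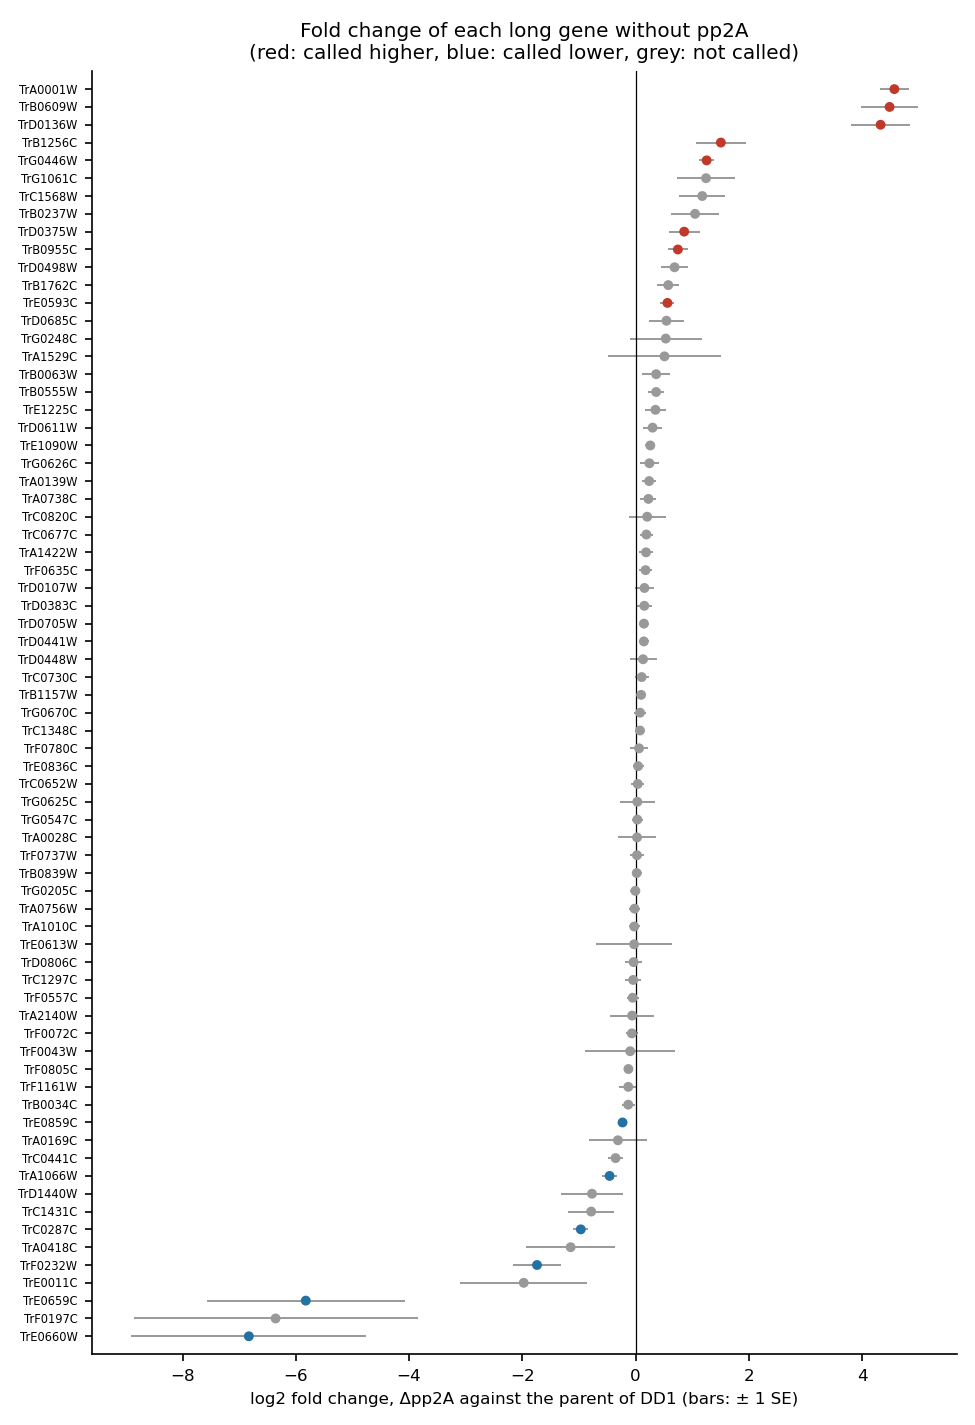
The log2 fold change of each of the 71 long genes in Δpp2A against the DD1 parent, with bars of 1 SE from edgeR, red and blue for adjusted p under 0.05. TrA0001W, TrB0609W and TrD0136W stand apart at 4.33 to 4.57, and TrE0660W, TrF0197C and TrE0659C have the lowest estimates with wide bars.

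TrA0001W, TrD0136W and TrB0609W were the members with the largest rise. TrA0001W, the gene of 9003 bases with running number 1 in series A, had 33.7 and 41.9 CPM in the parent and 914, 915, 762 and 1002 in Δpp2A. In the other libraries it lay between 31.0 and 54.0 CPM, so that only the 4 Δpp2A libraries were high. Its level was 23.8-fold higher, a log2 fold change of 4.57 (SE 0.26, edgeR adjusted p = 9.29e-07).

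TrD0136W, with 6825 bases, had 41.0 and 67.4 CPM in the parent and 1028, 1206, 873 and 1245 in Δpp2A. Elsewhere it lay between 26.8 CPM in Δpph5-2 replicate 4 and 94.5 CPM in Δpph5-2 replicate 1, far below every Δpp2A library. Its log2 fold change was 4.33 (SE 0.52, edgeR adjusted p = 0.000268). The neighbouring number, TrD0135C, which is no member, had 225 to 299 CPM in Δpp2A and 4.79 to 17.8 in the other libraries. Since the use of strand in counting is not given, reads of overlapping neighbours cannot be told apart. TrB0609W, with 9453 bases, was a low-level gene of 2.14 and 2.74 CPM in the parent, or 17 and 27 counts, and reached 52.9, 56.1, 42.5 and 69.5 CPM in Δpp2A. The remaining 9 libraries lay between 1.65 and 7.44 CPM and overlapped with the parent. The log2 fold change of TrB0609W was 4.49 (SE 0.50, edgeR adjusted p = 0.000140).

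The other 5 higher members rose by less. TrG0446W had 93.8 and 85.3 CPM in the parent and 228, 229.6, 181 and 216 in Δpp2A, and its other libraries stayed between 70.6 and 119 CPM. Its log2 fold change was 1.26 (SE 0.14, edgeR adjusted p = 0.000135). Each of these 4 genes, TrA0001W, TrD0136W, TrB0609W and TrG0446W, was called under all 23 alternatives run for it. TrB0955C went from 119 and 188 CPM to 249 to 271 (log2 fold change 0.75, SE 0.18, edgeR adjusted p = 0.0125), and TrE0593C from 149 and 179 to 227 to 250.4 (0.56, SE 0.12, adjusted p = 0.00862). TrD0375W went from 73.2 and 125 CPM to 176 to 184 (0.86, SE 0.28, adjusted p = 0.0478). In these 3 genes the Δpp2A libraries lay above both parent libraries, of which replicate 1 was the lower. TrB0955C and TrE0593C were each called under 22 of 23 alternatives and lost the call only without parent replicate 1. TrD0375W was called under 12 of 23, and its log2 fold change was 0.52 without parent replicate 1. Its call was also lost without any single Δpp2A replicate, without either DD3 parent library and with no filter, among others.

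TrB1256C, the longest gene of all, was also higher in Δpp2A. It had 685 and 1508 CPM in the DD1 parent and 3317, 2714, 3307 and 3125 in Δpp2A. In Δpph5 it had 1861, 747 and 585, in the DD3 parent 802 and 1276, and in Δpph5-2 1552, 1844, 2068 and 1752 CPM. The Δpp2A libraries were above all 11 others, and the parent and Δpph5 libraries differed among themselves by up to 3.18 times. The log2 fold change in Δpp2A was 1.51 (SE 0.44, edgeR adjusted p = 0.0343), and it was 1.05 without parent replicate 1. TrB1256C was called under 17 of 23 alternatives. The call was lost without parent replicate 1, without any single Δpp2A replicate and with the replicate block. TrG0248C, the gene second in length, had 436 and 1653 CPM in the parent and 1745, 1316, 1511 and 1476 in Δpp2A, which overlap (log2 fold change 0.53, SE 0.64, edgeR adjusted p = 0.570). TrG0670C, TrB0063W and TrC0677C, the next in length, had log2 fold changes of 0.08, 0.36 and 0.19 and were not called (adjusted p = 0.598, 0.302 and 0.222 by edgeR). TrG0670C stood at 1896 and 1929 CPM in the parent and 1960.4 to 2072 in Δpp2A with no overlap.

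Lower without pp2A were TrC0287C, TrF0232W, TrA1066W and TrE0859C, besides TrE0659C and TrE0660W. TrC0287C, the long gene with the highest level per kilobase, had 2238 and 1952 CPM in the parent and 999, 1039, 1233 and 1016 in Δpp2A. Its 9 other libraries had 1700.2 to 2711 CPM, so that every library with pp2A lay above every library without it. The log2 fold change was -0.97 (SE 0.13, edgeR adjusted p = 0.000513), and the gene was called under all 23 alternatives. TrC0441C, with the next highest level per kilobase, had 1770.3 and 1738 CPM in the parent and 1289 to 1452 in Δpp2A without overlap, and did not pass the test against the parent (-0.35, SE 0.14, edgeR adjusted p = 0.0903). TrF0232W, a low-level gene, had 5.92 and 22.7 CPM in the parent and 3.33 to 4.95 in Δpp2A (-1.74, SE 0.43, adjusted p = 0.0161). Its parent libraries differed by 3.84 times, and without replicate 2, the higher, the value was -0.46 with an edgeR adjusted p of 0.417. TrA1066W went from 513 and 699 to 406 to 472 CPM (-0.46, SE 0.13, adjusted p = 0.0306), and -0.22 with an adjusted p of 0.264 was left without parent replicate 2. TrE0859C went from 156 and 149 to 128 to 132 CPM (-0.23, SE 0.07, edgeR adjusted p = 0.0359), a direction that turned to 0.08 with scaling by library size only. Of 23 alternatives, TrF0232W was called under 20, TrA1066W under 16 and TrE0859C under 12.

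TrE0659C, with 7668 bases, and TrE0660W, with 7902, carry consecutive running numbers and rose and fell together across libraries rather than across groups. TrE0659C had 4983 and 149 CPM in the DD1 parent, 35.3, 29.9, 64.1 and 51.7 in Δpp2A, and 43.1, 4660 and 3829 in Δpph5. With the tag DD3 it had 2196 and 80.4 CPM in the parent and 159, 99.1, 40.1 and 963 in Δpph5-2. Within 4 of the 5 groups the libraries thus ranged from low to very high, and all 4 Δpp2A libraries were low. TrE0660W had 6228 and 139 CPM in the DD1 parent, 14.5, 13.2, 47.9 and 36.3 in Δpp2A, and 13.1, 5631 and 4401 in Δpph5. With the tag DD3 it had 2557 and 66.5 CPM in the parent and 178, 108, 22.9 and 1198 in Δpph5-2. The same libraries were high for both genes, and the ratio of TrE0660W to TrE0659C lay between 0.304 and 1.25.

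Against the DD1 parent both genes of this pair passed the test in Δpp2A, with log2 fold changes of -6.83 (SE 2.08, edgeR adjusted p = 0.0397) for TrE0660W and -5.82 (SE 1.75, adjusted p = 0.0379) for TrE0659C. Both calls were lost without parent replicate 1, the high parent library, where the values were -2.31 and -1.72. They were also lost without any single Δpp2A replicate, with the replicate block, with no filter and with a surrogate variable. TrE0660W was called under 14 and TrE0659C under 15 of 23 alternatives. Neighbouring identifiers that are no members moved in the same libraries. TrE0661W had 615 CPM in DD1 parent replicate 1, 541 and 556 in Δpph5 replicates 2 and 3, 277 in DD3 parent replicate 1 and 116 in Δpph5-2 replicate 4, and at most 12.7 in each other library. TrE0664C had 1289, 1179.6, 1163, 624 and 239 CPM in those libraries in that order, and at most 25.2 in each other. Between them, TrE0662C had 175 to 394 CPM in Δpp2A and 779 to 7158 in the other libraries. TrE0663W had 99.2 to 158 CPM in Δpp2A and 167 to 1377 in the others. For both, every Δpp2A library thus lay below all others. On the other side TrE0658C held at most 0.165 CPM in any library. No source used here says whether running numbers follow the order along a chromosome.

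Other members differed between the libraries of a group along similar lines, and they were picked after their values were seen. TrA0418C had 202 CPM in DD1 parent replicate 1, 338 and 170.3 in Δpph5 replicates 2 and 3 and 115 in DD3 parent replicate 1, and between 24.3 and 63.8 in the other 11 libraries. TrF0197C, the long gene with the fewest reads, held 16 counts in DD1 parent replicate 1, 11 and 9 in Δpph5 replicates 2 and 3, 4 in DD3 parent replicate 1, 1 in DD1 parent replicate 2 and 0 in the other 10 libraries. TrB1256C and TrG0248C were low in some of the libraries in which TrE0659C was high, with 685 and 436 CPM in DD1 parent replicate 1, 747 and 327 in Δpph5 replicate 2, and 585 and 242 in Δpph5 replicate 3. The TMM factor was lowest in Δpph5 replicate 2 at 0.802, DD1 parent replicate 1 at 0.852, Δpph5 replicate 3 at 0.873 and DD3 parent replicate 1 at 0.934, so the composition of these libraries moved with these genes, and its part in the results was not tested. Members whose highest library exceeded the lowest of the same group by over 4 times numbered 5 in the DD1 parent (7.04%, against 6.75% of all genes), 0 in Δpp2A (against 1.78%) and 6 in Δpph5 (8.45%, against 7.96%). They numbered 3 in the DD3 parent (4.23%, against 2.42%) and 6 in Δpph5-2 (8.45%, against 4.22%). In the DD1 groups the share of members was near or below that of all genes.

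**Figure D3:**
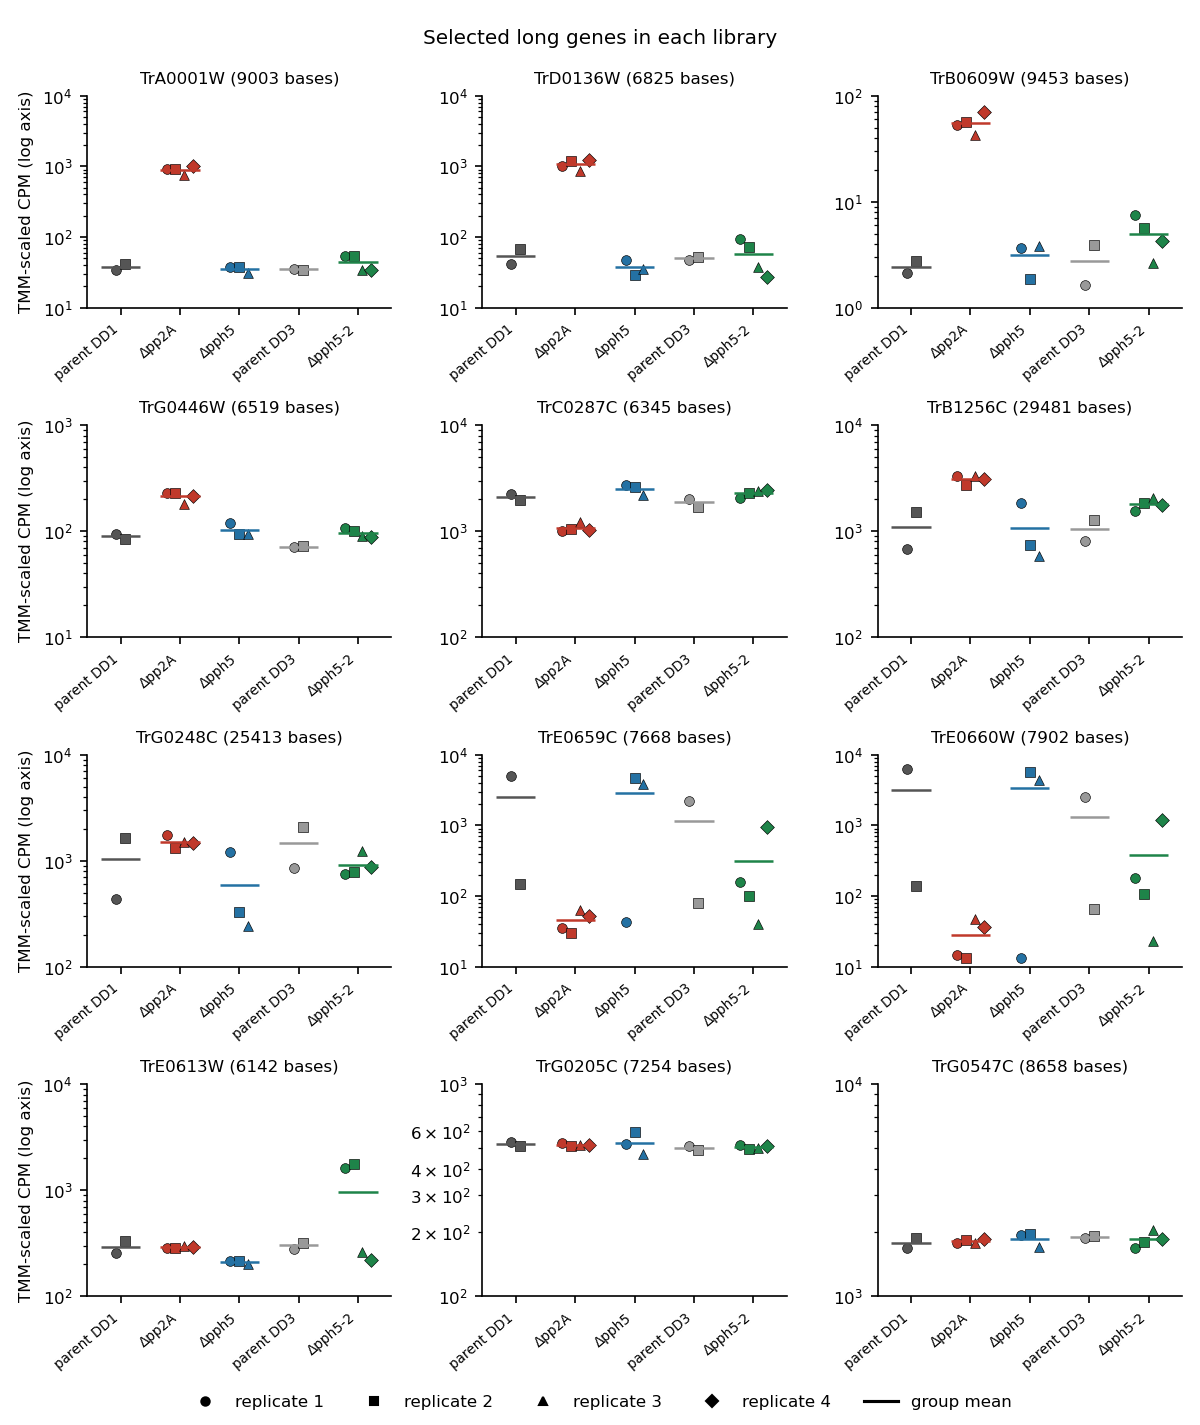
TMM-scaled CPM (log axes) of 12 long genes in each of the 15 libraries, with 1 symbol per replicate number and a line at the group mean. TrA0001W, TrD0136W and TrB0609W are high in the 4 Δpp2A libraries, TrE0659C and TrE0660W differ within groups, TrE0613W is high in Δpph5-2 replicates 1 and 2, and TrG0205C stays between 471 and 593 CPM.

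The 4 Δpp2A libraries could also be set against all 11 others, which include libraries of both tags. In 19 long genes (26.8%) every Δpp2A library lay above the 11 others, compared with 9.93% of all genes, and in 4 (5.63%) every one lay below, compared with 9.3%. Those below were TrC0287C, TrC0441C, TrE0859C and TrF0232W. The heatmap of all members orders them by the mean difference, so that its lowest rows also hold genes whose libraries overlap, such as TrE0659C and TrE0660W.

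**Figure D4:**
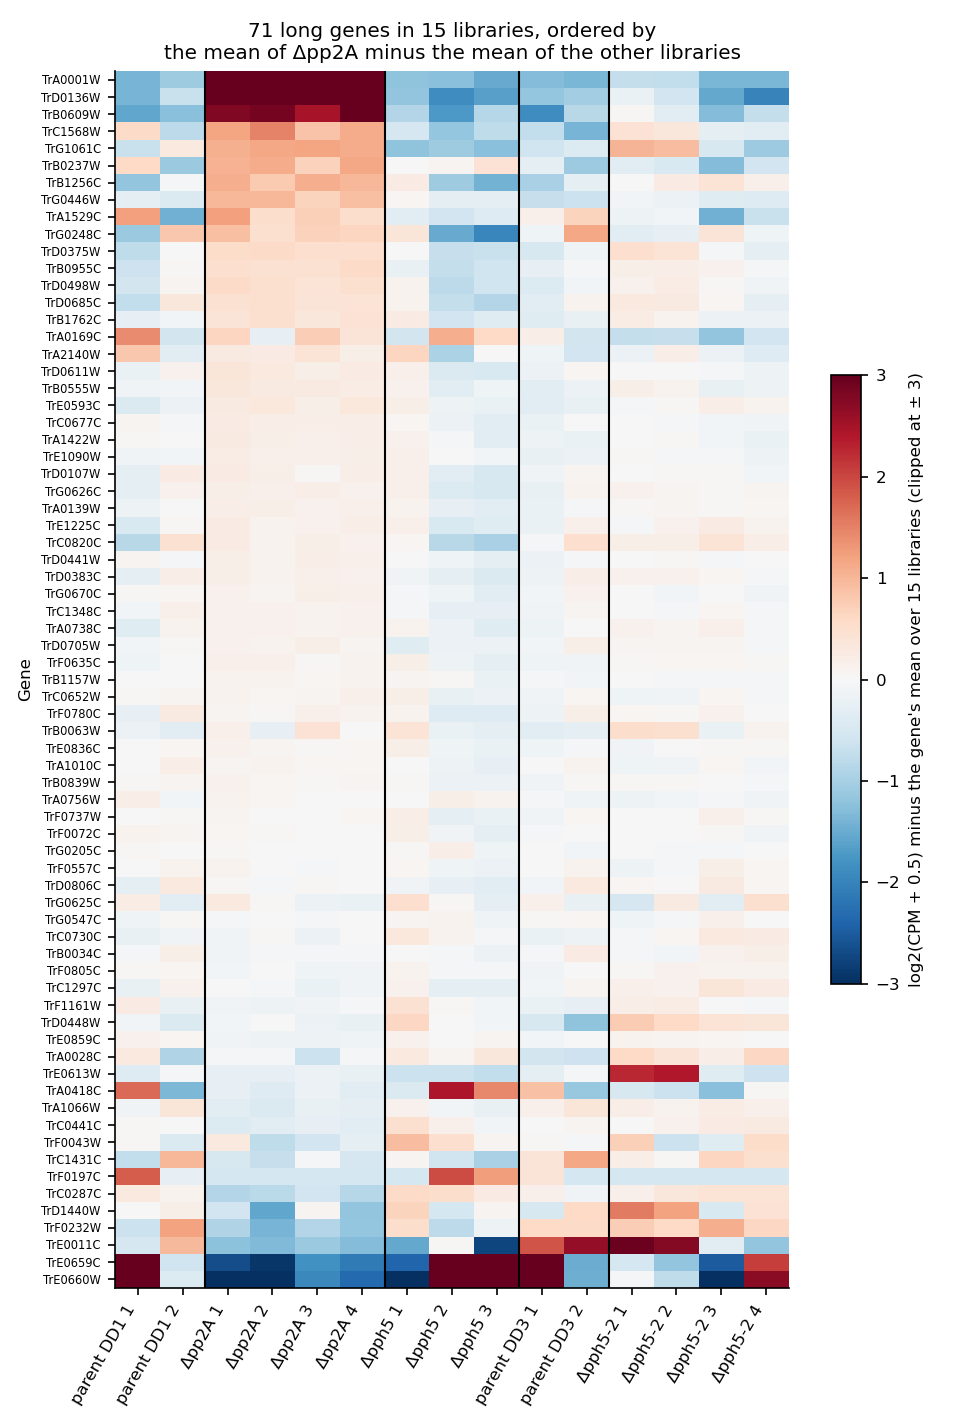
log2(CPM + 0.5) of the 71 long genes (rows) minus each gene's mean over the 15 libraries (columns), clipped at 3 in either direction, with rows ordered by the mean of Δpp2A minus the mean of the other libraries. The top rows are high in the 4 Δpp2A libraries, and the bottom rows, TrE0659C and TrE0660W, differ between replicates of the same group.

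Δpp2A was next compared with Δpph5, the other deletion of the tag DD1. This comparison shares its Δpp2A libraries with the comparison above, so the values are given side by side and are not independent. Of the 71 long genes 28 were called by edgeR at an adjusted p under 0.05 (39.4%, against 33.8% of all genes), 22 of them higher in Δpp2A (31%, against 14.1%) and 6 lower (8.45%, against 19.6%). Among the 227 genes of 4000 to 6000 bases, 59 were called higher and 18 lower, so the lean to higher calls was not particular to the long genes. The median log2 difference was 0.20 for the members and -0.02 for all genes. At an unadjusted p under 0.05 there were 40 members (56.3%, against 46%). Every Δpp2A library lay above every Δpph5 library in 30 members (42.3%, against 20.2%) and below in 5 (7.04%, against 18.4%). The largest were TrD0136W at 4.87 (SE 0.45, edgeR adjusted p = 2.59e-05), TrA0001W at 4.66 (SE 0.22, adjusted p = 7.10e-08) and TrB0609W at 4.11 (SE 0.41, adjusted p = 3.56e-05), the members that had also risen most against the parent. TrB1256C differed by 1.55 (SE 0.38, edgeR adjusted p = 0.0106). TrG0670C and TrC0677C, which were not called against the parent, were higher than in Δpph5 by small differences of 0.29 (SE 0.09, adjusted p = 0.0313) and 0.35 (SE 0.10, adjusted p = 0.0178). In both genes all 4 Δpp2A libraries were above the 3 Δpph5 libraries, at 1960.4 to 2072 against 1462 to 1813 CPM in TrG0670C and 1266 to 1307 against 883 to 1159.9 CPM in TrC0677C.

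Lower in Δpp2A than in Δpph5, without overlap, were TrC0287C by -1.23 (SE 0.12, edgeR adjusted p = 2.94e-05), TrC0441C by -0.52 (SE 0.12, adjusted p = 0.00875) and TrE0859C by -0.21 (SE 0.06, adjusted p = 0.0235). TrC0441C had 1289, 1386, 1452 and 1368 CPM in Δpp2A and 2387, 1909 and 1615 in Δpph5. Under scaling by library size only TrC0441C was at -0.21 with an edgeR adjusted p of 0.301, and TrE0859C turned to 0.12. TrF0232W was also called at -1.13 (adjusted p = 0.0451), with 3.33 to 4.95 CPM against 5.38 to 14.1. TrE0660W at -6.90 and TrE0659C at -5.97 were called as well (edgeR adjusted p = 0.0235 and 0.0211), although Δpph5 replicate 1 lay within the Δpp2A range or below it for both. The number of calls moved with the Δpph5 libraries and was 44 without Δpph5 replicate 1, 13 without replicate 2 and 12 without replicate 3. The called part of all genes moved with it, to 47.7%, 17.3% and 17.3%.

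Deletion of pph5 changed 0 of the long genes against the DD1 parent at an adjusted p under 0.05 by edgeR, and 0.0112% of all genes were called. DESeq2 also called 0 members. At an unadjusted p under 0.05 there were 4 (5.63%, against 6.43% of all genes), TrA1010C, TrC0730C, TrC1348C and TrD0705W, named because they are so few, with log2 fold changes of -0.23, 0.29, -0.22 and -0.21. The smallest adjusted p was 0.764, for TrA1010C. In 3 members every Δpph5 library lay above both parent libraries (4.23%, against 5.68%), and in 4 every one lay below (5.63%, against 5.92%). The median log2 fold change was -0.09 for the members and 0.01 for all genes, and 60 of the 71 estimates lay within 0.5 of 0. TrA0001W, with 38.2, 37.0 and 31.0 CPM in Δpph5 and 33.7 and 41.9 in the parent, differed by -0.09 (SE 0.21), TrD0136W by -0.54 (SE 0.43) and TrB0609W by 0.38 (SE 0.47), each with overlapping libraries.

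Deletion of pph5-2 changed 0 of the long genes against the DD3 parent by edgeR at an adjusted p under 0.05, with 0.0112% of all genes called. At an unadjusted p under 0.05 there were 9 members (12.7%, against 8.64%), all with higher estimates. In 18 members all 4 Δpph5-2 libraries lay above both parent libraries (25.4%, against 12.6% of all genes), and in 2 they lay below (2.82%, against 8.86%). The median log2 fold change was 0.11 for the members and 0.01 for all genes. The smallest edgeR adjusted p was that of TrD0448W, a gene of 7047 bases. It had 13.4 and 8.02 CPM in the DD3 parent and 32.7, 29.0, 25.3 and 24.6 in Δpph5-2, with no overlap, a log2 fold change of 1.38 (SE 0.25) and an edgeR adjusted p of 0.229. DESeq2 called this member and no other. Its mean was 16.0 ± 2.75 CPM (SD, n = 2) in the DD1 parent and 17.5 ± 1.29 (SD, n = 4) in Δpp2A.

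TrE0613W, singled out after its values were seen, showed a split within Δpph5-2. It had 1610 and 1778 CPM in replicates 1 and 2 and 264 and 220 in replicates 3 and 4, while all libraries of the other groups lay between 200.3 and 330.3. Replicates 1 and 2 were thus high alone, and replicates 3 and 4 overlapped with the other groups. Its estimate of 1.68 (SE 0.72, log2) against the DD3 parent did not pass the edgeR test (adjusted p = 0.538). TrG1061C had 119.5 and 112 CPM in the same replicates 1 and 2 and 41.7 and 27.1 in replicates 3 and 4, and TrE0011C had 32.5 and 28.6 against 2.97 and 1.38. Neither was high in these replicates alone, since TrG1061C had 123 to 134 CPM in the 4 Δpp2A libraries and TrE0011C had 15.4 and 26.1 in the DD3 parent. The neighbouring identifiers TrE0612W and TrE0614W had at most 12.8 and 0.330 CPM in any library, and neither was high in Δpph5-2 replicates 1 and 2.

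The pph5-2 response minus the pph5 response was called in 0 long genes by edgeR (background 0.0224%) and in 0 by DESeq2. Unadjusted p lay under 0.05 in 4 members (5.63%, against 3.34%), TrC1568W, TrG1061C, TrD0448W and TrE0613W, named because they are so few. TrC1568W, a gene of 11172 bases, had the smallest of these p, with a difference of 2.07 (SE 0.59, edgeR adjusted p = 0.886). It had 12.7 and 4.67 CPM in the DD1 parent, 5.83, 3.52 and 4.72 in Δpph5, 4.84 and 2.90 in the DD3 parent and 11.5, 10.7, 6.73 and 6.55 in Δpph5-2. Of the pph5 and pph5-2 comparisons with a parent, only that of pph5-2 was free of overlap for this gene. TrC1568W had 15.6 to 24.3 CPM in Δpp2A, above all 11 other libraries. The DD3 parent against the DD1 parent gave 0 called members by edgeR and by DESeq2 (background 0%), and 1 with an unadjusted p under 0.05, again TrC1568W at -1.16 (SE 0.46), which is 1.41% of the members against 1.82% of all genes. Both DD3 parent libraries lay above both DD1 parent libraries in 2 members (2.82%, against 7.56%) and below them in 12 (16.9%, against 10.7%).

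A second pair of consecutive identifiers among the members, TrG0625C and TrG0626C, showed nothing like the first. TrG0625C, with 9333 bases, had group means of 14.02 to 15.7 CPM. TrG0626C, with 6465 bases, had group means of 132 CPM in Δpph5 to 172 in Δpp2A. In no comparison with a parent did either pass the test, with log2 fold changes of 0.03 and 0.24 in Δpp2A (edgeR adjusted p = 0.953 and 0.302).

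The 71 long genes together held 3.05% to 4.39% of the counts of a library. In Δpp2A the share was 4.39%, 4.22%, 4.25% and 4.35% (mean 4.30% ± 0.0792, SD, n = 4), and in the DD1 parent 3.55% and 3.49% (3.52% ± 0.0386, SD, n = 2). All Δpp2A libraries lay above both parent libraries, by 0.783 percentage points on average. A 2-sided exact permutation test gave p = 0.133, the smallest p this design allows. These shares are of unscaled library totals. With scaling by library size only, the median log2 fold change in Δpp2A was 0.28 for all genes and 0.38 for the members. A rise on that scale was thus not particular to the long genes. In Δpph5 the share was 3.87%, 3.20% and 3.05%, which overlapped with the parent, and the mean difference of -0.144 percentage points (exact permutation p = 0.8) turned to 0.0173 without replicate 3. In Δpph5-2 the share was 3.80%, 3.78%, 3.45% and 3.402%, above the DD3 parent at 3.25% and 3.398%, by 0.288 percentage points (exact permutation p = 0.133, the smallest possible).

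TrE0659C and TrE0660W alone made up 0.955% of the counts of DD1 parent replicate 1, 0.825% and 0.719% in Δpph5 replicates 2 and 3 and 0.444% in DD3 parent replicate 1. Without these genes, an alternative chosen after seeing the data, the share of the other 69 members was 2.59% and 3.47% in the DD1 parent and 4.22% to 4.38% in Δpp2A. The difference was then 1.27 percentage points (exact permutation p = 0.133). Without TrB1256C, the member with the most counts, it was 0.532 for Δpp2A (exact permutation p = 0.133), -0.142 for Δpph5 (p = 0.6, exact) and 0.207 for Δpph5-2 (p = 0.4, exact). Leaving out TrE0659C and TrE0660W gave -0.169 for Δpph5 (p = 1.0, exact) and 0.450 for Δpph5-2 (exact permutation p = 0.267).

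**Figure D5:**
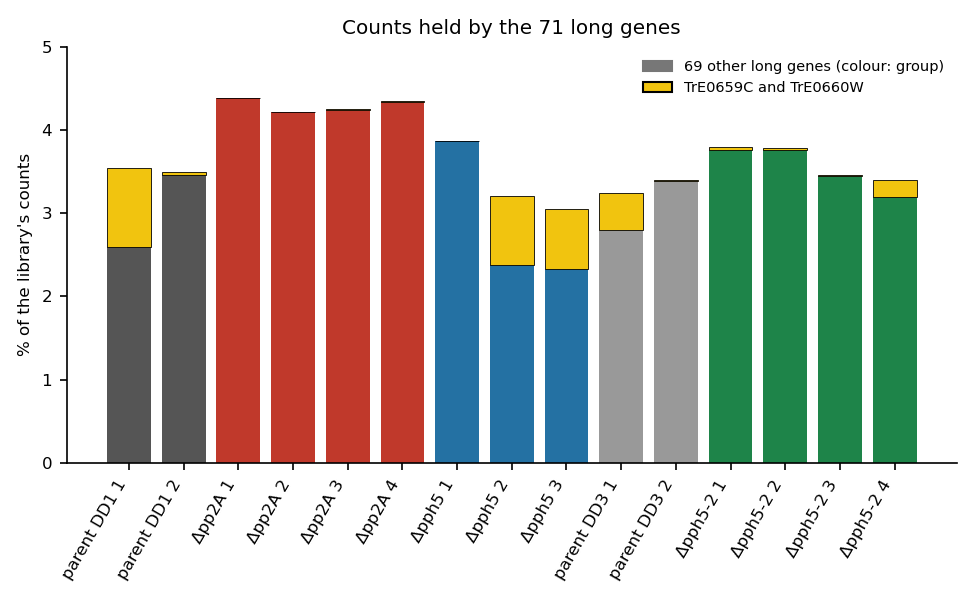
Share of each library's counts held by the 71 long genes, in percent, with TrE0659C and TrE0660W in yellow on top of the other 69 members. The 4 Δpp2A libraries reach 4.22% to 4.39%, and the yellow part is largest, at 0.955%, in DD1 parent replicate 1.

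Set against shorter genes, the members lay at the end of a gradual order of medians in the comparison of Δpp2A with its parent. The median log2 fold change was -0.08 for genes under 1000 bases, -0.04 from 1000 to 2000, 0.04 from 2000 to 4000, 0.07 from 4000 to 6000 and 0.08 for the long genes. The called part was 15.4%, 20.4%, 20.9%, 21.6% and 19.7% in the same order. Read depth differed along that order, with a median of the mean count per library of 168 in the shortest class and 3459 in the long genes. Against Δpph5 the medians were -0.09, -0.05, 0.07, 0.17 and 0.20, and for Δpph5 against its parent 0.04, 0.03, -0.02, -0.08 and -0.09. For Δpph5-2 against its parent they were -0.04, 0.02, 0.04, 0.04 and 0.11. Higher medians in longer genes were thus not particular to Δpp2A. The comparisons within DD1 share libraries, and no test of the order was run.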

How the data were processed

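The authors deposited raw, unscaled counts of reads per gene, 1 column per library, beside a gene length. Per the submitters' processing notes HISAT2 2.2.1 was among the tools used. The name of the deposited table points to featureCounts as the counter, without version or settings. No source used here gives its use of strand, the genome build or the annotation, and per the labels' protocols the kit was stranded with rRNA depletion.

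Counts were fitted over all 15 libraries with edgeR 4.0.16 in R 4.3.3, with 1 mean per group, TMM scaling, filterByExpr over the 5 groups and a robust quasi-likelihood test. Adjusted p-values are Benjamini-Hochberg values over the 8912 genes kept, with 0.05 as threshold, and only long genes are printed. The SE of a log2 fold change is its size divided by the root of the F statistic. CPM are TMM-scaled. The script was tested on simulated counts.

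The long genes and all lists were chosen with earlier results of these data known. Named are the 5 longest, the 5 highest per kilobase, called members with no overlap and at least 10 CPM (up to 8 per direction against the parent of Δpp2A, up to 3 elsewhere), members nearest the length limit, the 3 largest and 3 smallest SDs, and consecutive identifiers. Other names were added after seeing values. Alternatives were RLE scaling, library size only, no filter, DESeq2 1.42.0, a surrogate variable (sva 3.50.0), a replicate block, fewer libraries, and parents pooled. Replicate numbers were not taken as pairs. Deviations of same-numbered libraries did not correlate in every pair, a check that cannot decide whether such libraries share a factor.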

Additional observations from a re-analysis of the deposited data

Results flagged for a closer look

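Each set held the values of a long gene in a group of 4 libraries. In 3 of 56 sets 1 library stood far from the other 3. Chance would give about 1 in 20, or 2.8 sets, if the sets were independent. The sets did not cover all long genes, and their number matches the long genes named by rule. Some of those were named for being called or for a large SD. TrE0659C and TrE0660W rose and fell together and stood apart in the same library, so they are not separate draws. The 3 sets therefore cannot be judged against the 2.8. TrC0287C was at 1233 CPM in Δpp2A replicate 3 and at 999 to 1039 in the other Δpp2A libraries. TrE0659C was at 963 CPM in Δpph5-2 replicate 4 and at 40.1 to 159 in the other Δpph5-2 libraries. TrE0660W was at 1198 CPM in the same replicate 4 and at 22.9 to 178 in the others.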

How the results depend on the processing

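The 14 calls in Δpp2A against its parent became 9 with the replicate block (14.6% of all genes called, in place of 18.7%) and 27 with the parents of both tags as 1 group (34.0%), and ranged from 8 to 19 when 1 library was left out (8, 8, 9 and 8 without Δpp2A replicates 1 to 4, with 12.3% to 15.6% of all genes, and 19 without Δpph5 replicate 1, with 26.2%). They were 21 with DESeq2 (25.9%), 20 with library size only (21.4%) and 16 with only the libraries of the comparison (16.9%). With no filter there were 10 (14.3%), and 14 with RLE scaling (18.8%) or a surrogate variable (15.9%). For Δpph5-2 DESeq2 called 1 member. The 28 calls between Δpp2A and Δpph5 became 43 with library size only (40 higher, 93.0% in place of 78.6%, with 3563 of all 8912 genes called), 12 with a surrogate variable (12.7%) and 22 with the replicate block (26.3%), and ranged from 12 to 44 when 1 library was left out (18, 18, 20 and 18 without Δpp2A replicates 1 to 4). The replicate numbers were not taken as pairs. Of 24 same-numbered pairs of libraries 11 correlated over 0.1 (r from -0.725 to 0.744). Same-numbered libraries of the 2 parents deviated together at r = 0.744, and groups of 2 give mirrored deviations. The check therefore cannot decide whether same-numbered libraries share a factor, and why calls were lost under the block was not tested. Reversed were TrE0859C at 0.0774 against the parent and 0.121 against Δpph5 (log2) with library size only, and the difference in the share of counts for Δpph5, which was 0.0173 without Δpph5 replicate 3 and ranged from -0.392 to 0.0173 percentage points over the left-out libraries. In each reversal and each changed count the cause was not tested. With a surrogate variable TrE0660W and TrE0659C were at -0.95 and -0.70 (edgeR adjusted p = 0.632 and 0.674). Of the other settings for single genes, 389 kept direction and side of the threshold and 63 lost the call. Groups of 2 parent libraries and low counts limit precision most in TrF0197C, TrF0043W and TrA1529C, which held 41, 117 and 163 counts in all.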

Other observations

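Among the long genes with the fewest reads, TrF0043W held 117 counts and TrA1529C 163 over the 15 libraries. TrA1529C had 2.65 and 0 CPM in the DD1 parent, 1.44 to 2.67 in Δpp2A and 0.414 to 0.583 in Δpph5, with Δpp2A above Δpph5 in every library and the parent overlapping with both.

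TrA0169C had 219 CPM in DD1 parent replicate 1 and 55.5 in replicate 2, 69.5 to 136 in Δpp2A, 55.4 to 175 in Δpph5, and 35.8 to 54.5 in the 4 Δpph5-2 libraries, below both DD3 parent libraries at 94.6 and 55.8. TrD1440W had 821 and 649 CPM in Δpph5-2 replicates 1 and 2, 203 and 376 in replicates 3 and 4, and 94.4 to 446 in all other libraries. Both genes were picked after their values were seen, and no explanation was tested.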
